A study of Mus musculus with 6 samples.

Results

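Liver RNA of wild-type (WT) mice on doxycycline (Dox) chow, taken after 6 h without food, was compared with liver RNA of WT mice fasted for 24 h. Both arrays labelled WT on Dox, 1 for each of 24 h and 48 h of that chow, were set against the array labelled as the 24 h fasted control, so 3 of the 6 arrays of the series entered the comparison. All mice were of the FVB strain and 10 weeks old, and each array held cRNA from a pool of livers whose number of animals and sex no label states. The labels list Dox for the Dox pools alone, so Dox chow and the length of the fast cannot be told apart. The other arrays were 2 pools of LIXs mice, which carry a Dox-inducible transgene for Xbp1s, the active form of the stress transcription factor Xbp1, at 24 h and 48 h of Dox, and 1 pool of WT mice refed for 2 h. Each gene was read by its brightest probe, and a gene entered if that probe had an intensity above 129, the detection level, on at least 1 of the 3 arrays. Of 9318 such genes among 19057 named genes, 8100 had the same sign of difference against both Dox arrays, 3872 higher and 4228 lower, and 1218 did not. The dimmest genes that entered, Tcp10a, Dlx6os2 and Abr, had a highest intensity of 129.0.

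In the first hours without food the liver feeds the blood from glycogen. With a longer fast it shifts to glucose made from amino acids and glycerol, and it oxidises fatty acids from adipose tissue and turns them into ketone bodies, under the nuclear receptor PPARA and the hormones glucagon and glucocorticoid. The hepatokine FGF21 is released, IGF1 output falls, and synthesis of fatty acids and sterols is held down. Hepatocytes also secrete most plasma proteins, and genes for folding and export of those proteins in the endoplasmic reticulum (ER) follow the load of newly made protein.

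On the 3 arrays between 7521 and 7597 genes were detected. The genotype labels could not be checked by Xbp1, which read 4259 and 5209.7 on the arrays labelled WT on Dox, 4537 and 4350.1 on those labelled LIXs and 4457 on the fasted array. In 3 lists of ER genes, a group that holds known Xbp1s targets, 73 of 74 tested genes (98.6%) read higher on the array labelled WT on Dox than on the one labelled LIXs at 24 h and 66 (89.2%) at 48 h, where 50.5% and 51.5% of all genes did. For example, Dnajc3, an ER co-chaperone, read 2081 and 2368 on those WT arrays and 784 and 1138 on the LIXs arrays. Whether these genotype labels are exchanged cannot be told from the values used here, so the arrays labelled WT on Dox may carry the Xbp1s transgene. Every direction given here is that of the labels, and "the Dox arrays" means the pair labelled WT on Dox, the 24 h array first.

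The fasted array stood apart from the other 5. Across the 9318 genes, which are not independent replicates, Pearson's r of log2 levels was 0.911 to 0.935 for pairs with the fasted array and 0.959 to 0.987 for all other pairs. Between the Dox arrays 305 genes differed at least 2-fold, whereas 2853 differed between the 24 h Dox array and the fasted array and 2673 between the 48 h Dox array and the fasted array. Differences from the fasted array were also less often repeated by a second probe of the same gene. Of 1492 genes with a second probe detected on all 6 arrays, 319 differed at least 2-fold between the 24 h Dox array and the fasted array, and the second probe went the same way for 233 of them (73%). The share was 200 of 294 (68%) for the 48 h Dox array, and between 55.1% and 62.8% for the refed and LIXs arrays against the fasted one. In pairs of arrays without the fasted one it lay between 80.7% and 100%, with 40 of 40 between the Dox arrays. The cause was not tested. Values of a second probe are given below for many of the genes that have one.

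**Figure D1:**
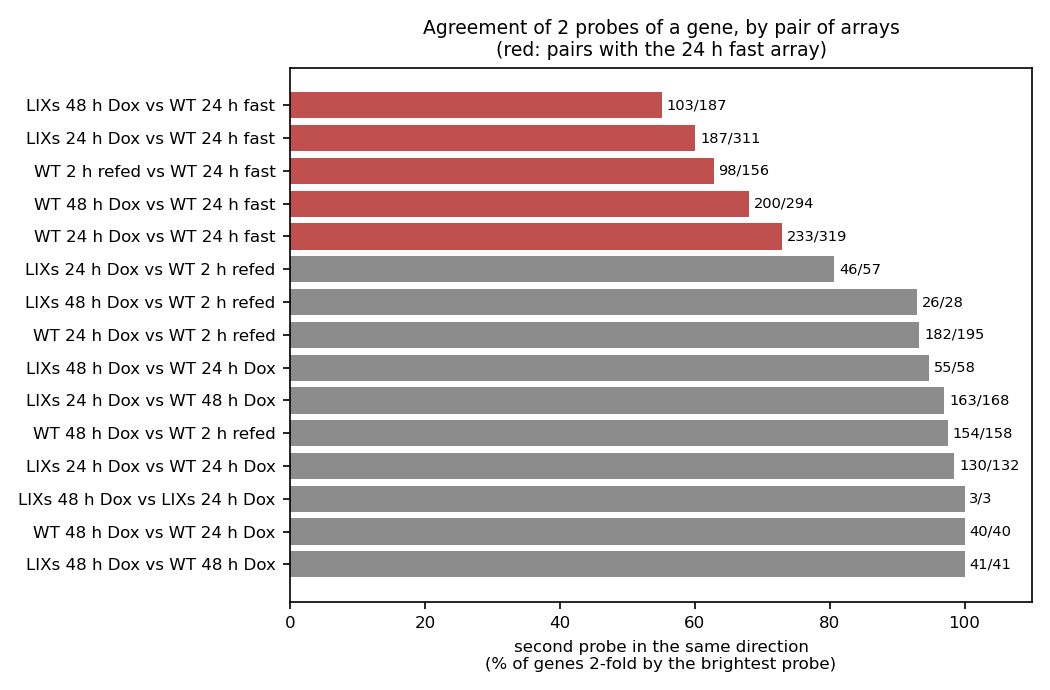
Share of genes (%) whose second probe had the same direction as the brightest, among genes at least 2-fold different by the brightest probe, for each of the 15 pairs of arrays; numbers beside the bars are the genes. The 5 pairs with the 24 h fasted array (red) lie between 55.1% and 73%, and the other pairs (grey) between 80.7% and 100%.

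At 2-fold in the same direction against both Dox arrays, 892 genes (9.57%) were higher and 1063 (11.4%) lower on the Dox arrays than on the fasted array. These values come from background-corrected log2 levels. On the deposited intensities, in which the array background compresses the differences of dim genes, 169 genes (1.81%) were higher and 179 (1.92%) lower. Among the 6025 genes detected on all 3 arrays, 428 (7.1%) were higher and 457 (7.59%) lower. The limma test across all 9318 genes, in which the difference between the Dox arrays serves as the error and the lone fasted array is assumed to vary like them, gave 987 genes (10.6%) higher and 1196 (12.8%) lower at an adjusted p under 0.05. It counted 3903 genes at an unadjusted p under 0.05 and has 1 residual degree of freedom, so its p-values measure the spread between 2 arrays and not between animals. With genes below the detection level included, 0 genes passed. The mean log2 difference had a median of -0.03 over all genes, with 48.5% above 0.

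For many of these genes the fasted array differed from all others. For 433 of the 892 higher genes (48.5%) and 509 of the 1063 lower genes (47.9%), the LIXs arrays and the refed array also lay at least 2-fold from the fasted array on the same side as the Dox arrays. For 8 higher (0.897%) and 3 lower genes (0.282%), all 3 of those arrays lay at least 2-fold from both Dox arrays on the side of the fasted one. The remaining 451 and 551 genes met neither condition. All these genes were picked by the distance of the 1 fasted array from both Dox arrays, which by itself favours the first condition over the second. The counts therefore describe the picked genes and do not show which arrays are unusual.

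A second probe detected on all 3 arrays was available for 1566 genes and gave a second reading of the same RNA. Genes with both probes at least 2-fold in 1 direction against both Dox arrays are described first, and were chosen after their values were seen. By the brightest probe 98 of the 1566 genes (6.26%) were higher and 115 (7.34%) lower. The second probe went the same way against both Dox arrays for 54 and 80 of them and the opposite way for 35 and 21. It was at least 2-fold in the same direction for 16 of the 98 (16.3%) and 22 of the 115 (19.1%), or 1.02% and 1.4% of the 1566 genes, where 8.75% and 6.7% of all second probes were 2-fold higher and lower.

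**Figure D2:**
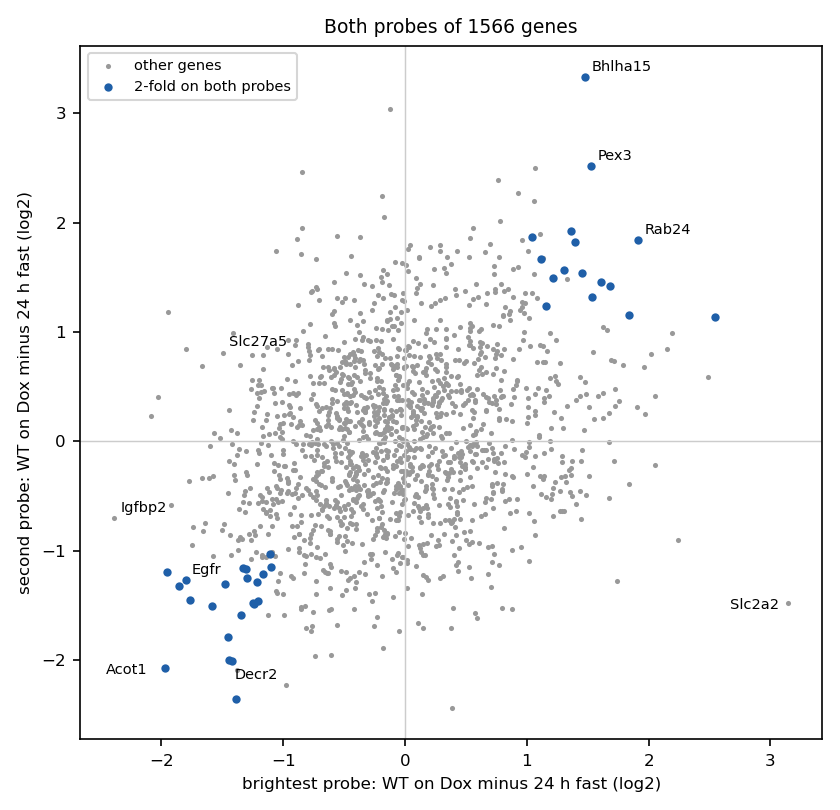
Mean log2 difference, Dox arrays minus fasted array, of 1566 genes by their brightest probe (horizontal axis) and their second probe (vertical axis); blue points are the 38 genes at least 2-fold on both probes against both Dox arrays. Bhlha15, Pex3 and Rab24 stand at the upper right, Acot1, Decr2 and Egfr at the lower left, and Slc2a2 has probes of opposite direction.

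The 16 genes higher on both probes included factors of secretion, organelle assembly and splicing. Bhlha15, the transcription factor Mist1 of secretory cells and a known Xbp1 target, read 702 and 824 on the Dox arrays, against 332 on the fasted array, a log2 difference of 1.48 ± 0.31 (SE, adjusted p = 0.0245). Its second probe read 469.8 and 457, against 129, and all 3 of its probes were higher, by 1.48 to 3.33. Bhlha15 was the 1 gene among the 16 for which the Dox arrays and not the fasted array stood apart, since the arrays labelled LIXs read 264 and 306 and the refed array 321. Sec63, which drives proteins through the ER membrane pore together with the chaperone BiP, read 1200.1 and 1457 on the Dox arrays, against 643 on the fasted array, and 787 and 846, against 399 on its second probe. Ergic2, of the compartment between ER and Golgi, read 380.2 and 294 on the Dox arrays, against 168 on the fasted array (1.68 and 1.42 by the 2 probes). Rab24, a small GTPase linked to autophagy, read 891 and 717 on the Dox arrays, against 280.0 on the fasted array, and its second probe differed by 1.84. Pex3, which seats membrane proteins in peroxisomes, read 393 and 433 on the Dox arrays, against 203 on the fasted array, and its second probe differed by 2.51. Splicing factors among the 16 were Bud31, at 1201 and 1547 on the Dox arrays, against 508 on the fasted array, and Sf3b5, at 1786 and 1624, against 746. Papss2, which makes the sulphate donor for conjugation, read 1673 and 1535 on the Dox arrays, against 743 on the fasted array. Zcchc17 had the largest brightest-probe difference of the 16, 2.54 ± 0.30 (SE, adjusted p = 0.018), and 1.13 on its second probe. The others, Med11, Synj2bp, Mycbp, Eif1ad, Ywhab, Ube2k and Lgals9, differed by 1.04 to 1.84 on the brightest probe, and 1 of the 3 probes of Eif1ad went the opposite way (-0.67).

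The 22 genes lower on both probes included enzymes of fatty acid, amino acid and purine breakdown and receptors at the cell surface. Acot1, a cytosolic acyl-CoA thioesterase and a known PPARA target, read 768 and 1636 on the Dox arrays, against 4103 on the fasted array, or 3.93-fold lower (-1.97 ± 0.49 (SE, adjusted p = 0.0351)). Its second probe read 163 and 227, against 501. The Dox arrays differed from each other for Acot1 but both lay below the fasted array, and the refed array read 4878. Acot1 belongs to a family of near-identical genes, so its probes may also read its relatives. Egfr, the receptor of epidermal growth factor, read 1548 and 2047 on the Dox arrays, against 5963 on the fasted array (3.48-fold lower), and its 5 detected probes had differences from -1.97 to -0.53. Il6ra, the receptor chain for interleukin 6, read 283 and 325 on the Dox arrays, against 854 on the fasted array, although 1 of its 3 probes differed by 0.10. Decr2, the peroxisomal dienoyl-CoA reductase, read 202 and 210.4 on the Dox arrays, against 402 on the fasted array, and its second probe 171 and 173, against 409.6. Afmid, the kynurenine formamidase of tryptophan breakdown, read 319 and 406 on the Dox arrays, against 805 on the fasted array, and its 7 probes had differences from -2.09 to -0.89. Gldc, of the glycine cleavage system, read 2108 and 2262 on the Dox arrays, against 5347 on the fasted array. Prodh2, which oxidises hydroxyproline, read 2347 and 2025 on the Dox arrays, against 4784 on the fasted array, and Urad, of uric acid breakdown, 287 and 283, against 569. Slc47a1, an exporter of organic cations, read 2422 and 1918 on the Dox arrays, against 5170.0 on the fasted array, but 1 of its 3 probes differed by 0.93. Ciart, a repressor within the circadian clock, read 185 and 183 on the Dox arrays, against 343 on the fasted array, and Ulk1, the kinase that starts autophagy, 323 and 297, against 596. The other genes were Mylk, Ubox5, Noa1, Fbxo31, Lrrc3, Sox5, Rrp1b, Cdk20, E2f6, Pla1a and Akap9, with brightest-probe differences between -1.96 and -1.10, and 1 of the 3 probes of Pla1a differed by 0.41. For 20 of the 22 the LIXs and refed arrays also lay below the fasted array, but for 0 of the 22 did all 3 lie 2-fold below it.

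**Figure D3:**
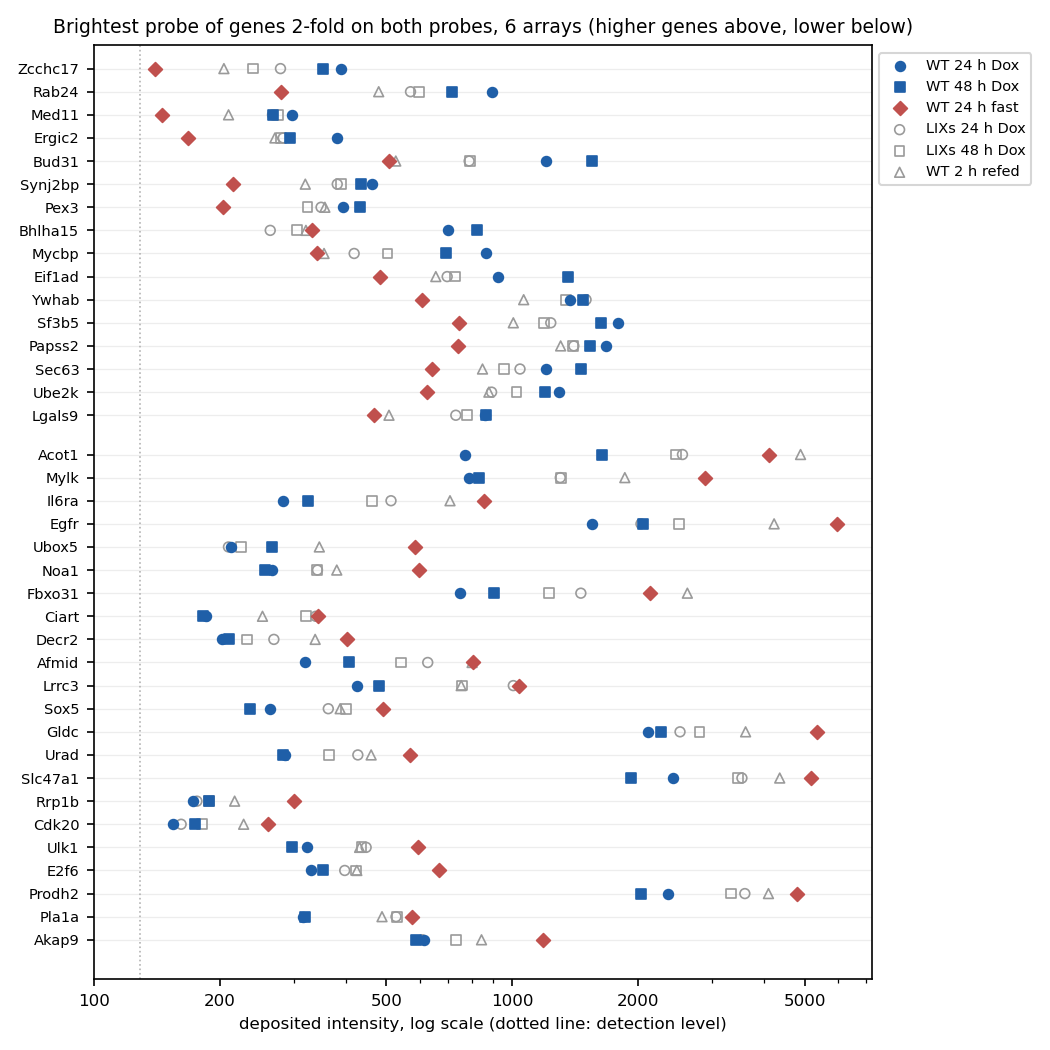
Deposited intensity (log axis) of the brightest probe of the 38 genes at least 2-fold on both probes, with the 16 higher genes above the 22 lower ones; filled blue symbols are the arrays labelled WT on Dox, red diamonds the 24 h fasted array and open grey symbols the other 3 arrays. For most genes the open symbols lie between the blue and the red ones, while for Bhlha15 they lie at the fasted array.

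Of 24 enzymes of fatty acid oxidation and ketogenesis 5 (20.8%) were at least 2-fold lower on the Dox arrays and 0 were 2-fold higher, where 11.4% and 9.57% of all genes were. The median was -0.56, with 14 of the 24 below 0, as were 51.5% of all genes. Beside Acot1 and Decr2, the lower genes were Aldh3a2, a fatty aldehyde dehydrogenase, at 1666 and 2093, against 4774 with -0.36 on its second probe, Decr1, the mitochondrial dienoyl-CoA reductase, at 459 and 383, against 949, and Acadl, the long-chain acyl-CoA dehydrogenase, at 249 and 256, against 429.6. The second probes of 11 genes had a median of -0.87, with 9 below 0, and 7 had the direction of the brightest probe. The probes of Cpt2, the carnitine palmitoyltransferase of the inner mitochondrial membrane, disagreed, with 0.54 on the brightest and -1.25 on the second. Bdh1, which interconverts the ketone bodies, read 2663 and 1898 on the Dox arrays, against 1321 on the fasted array, and Crat, the carnitine acetyltransferase, 139 and 175, against 124, and neither passed the limma test (adjusted p = 0.119 and 0.12). Cyp4a14, a PPARA target that oxidises fatty acids at their end, read 2152 and 4399.6 on the Dox arrays, against 6574 on the fasted array, lower on both Dox arrays but with a wide spread between them (adjusted p = 0.113).

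Among 29 fasting-induced regulators and secreted factors the direction was mixed, with 3 at least 2-fold higher (10.3%), 4 lower (13.8%) and a median of 0.23. These shares were near the 9.57% and 11.4% of all genes. Fgf21, the fasting hepatokine, read 555 and 549.5 on the Dox arrays, against 1225 on the fasted array, 2.46-fold lower (-1.30 ± 0.30 (SE, adjusted p = 0.0291)). G0s2, an inhibitor of the lipase ATGL, read 320.4 and 412 on the Dox arrays, against 1210.0 on the fasted array, Plin4 158 and 139.8, against 249 and Txnip, a brake on glucose uptake, 943 and 802, against 2267 with -0.76 on its second probe. Plin2, the lipid droplet coat protein, was higher at 574 and 837, against 283 (1.65 ± 0.36 (SE, adjusted p = 0.0265)). Angptl4, an inhibitor of lipoprotein lipase, read 1874 and 1517, against 1031 (adjusted p = 0.115). Pdk4, which blocks pyruvate oxidation, read 161 and 422, against 246, so the Dox arrays lay on either side of the fasted array. Cebpd and Sik1 were not detected on the fasted array and were at least 1.7-fold and 1.5-fold higher, taken against the higher of the lowest detected level and the gene's own level there. Such bounds are on background-corrected levels, and folds of the deposited intensities printed beside them are smaller for most of these genes. Ppargc1a read 116 and 149, against 107, detected on the 48 h Dox array alone, and Igfbp1 132 and 219, against 119.5 (adjusted p = 0.153). Cpt1a was below the detection level on all 3 arrays.

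Genes of protein export through the ER lay mostly above 0 on the Dox arrays, and a minority reached 2-fold, where 9.57% of all genes were 2-fold higher and 48.5% above 0. In the ER-associated degradation list, 14 of 15 genes had a difference above 0 and 4 (26.7%) reached 2-fold, and the median was 0.60. In the list of ER translocation and secretion 34 of 37 were above 0, 9 (24.3%) reached 2-fold in that direction, and the median was 0.67. Genes undetected on the fasted array entered only through the Dox arrays and could count in 1 direction alone. Among genes detected on all 3 arrays, 1 of 11 degradation genes and 6 of 33 translocation genes reached 2-fold, 10 and 30 lay above 0, and the medians were 0.46 and 0.54, against 7.1% 2-fold higher and 46.2% above 0 over all genes so detected. Second probes had medians of 1.28 over 6 genes and 0.82 over 12 genes, with 5 and 10 above 0. They had the direction of the brightest probe for 4 of the 6 and 8 of the 12. Of 22 chaperones and folding enzymes 6 (27.3%) were at least 2-fold higher, but the median was 0.20. Over 5 of them with a second probe the medians were -0.13 on the brightest and 0.22 on the second, and the direction was the same for 1. Of 23 genes of the amino acid response, the arm driven by the factor ATF4, 6 (26.1%) were at least 2-fold higher, 1 was lower and the median was 0.59. Over 3 of them with a second probe the medians were -0.05 and 0.32, and the direction was the same for 1. Earlier results of these data had shown the ER lists higher on the arrays labelled WT than on those labelled LIXs, so their direction here is not independent of that.

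Known motifs stand before the start of some of these genes, and the windows below show those of genes at least 2-fold higher on the Dox arrays. Promoter sequences of 250 bases before each start came from RefSeq on GRCm38.p6 and were searched on both strands. The ER stress element, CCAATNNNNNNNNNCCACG, bound by ATF6 with NF-Y, was found in 35 of 27025 genes (0.13%) and in 7 of 20 tested chaperones (35%). The element TGACGTGG, a core bound by Xbp1s and ATF6, was found in 163 genes (0.603%), in 2 of 13 tested genes of ER-associated degradation and in 2 of 26 of translocation and secretion. The amino acid response element, TGATGNAA, bound by ATF4 with C/EBP factors, was found in 1056 genes (3.91%) and in 7 of 20 tested genes of the ATF4 list (35%). Among the genes 2-fold higher, the ER stress element was in 1 of 5 chaperones (20%), 0 of 4 degradation genes and 0 of 6 translocation genes. TGACGTGG was in 0 of 5, 1 of 4 and 1 of 6 of the same groups, and TGATGNAA in 2 of 4 of the ATF4 list. These counts hold fewer genes than the lists above. A match is a description of the letters and does not show binding, and the last letters of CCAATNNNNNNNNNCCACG also open the reverse of TGACGTGG. Capitals mark the motif, and on the strand of the gene Ube2j1, Kdelr3 and Nupr1 carry it in reverse.
Dnajc3, chr14:118937787-118937885, + strand: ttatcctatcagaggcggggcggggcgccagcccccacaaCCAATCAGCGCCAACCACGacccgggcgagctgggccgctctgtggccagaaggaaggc
Ube2j1, chr4:33031272-33031359, + strand: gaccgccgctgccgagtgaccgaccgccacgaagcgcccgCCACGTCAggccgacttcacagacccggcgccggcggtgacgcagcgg
Kdelr3, chr15:79516338-79516407, + strand: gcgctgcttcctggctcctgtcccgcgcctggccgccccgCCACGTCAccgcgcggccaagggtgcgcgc
Asns, chr6:7693210-7693272, - strand: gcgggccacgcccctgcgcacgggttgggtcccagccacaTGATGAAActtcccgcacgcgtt
Nupr1, chr7:126625533-126625620, - strand: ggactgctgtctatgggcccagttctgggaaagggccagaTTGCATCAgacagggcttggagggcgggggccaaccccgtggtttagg

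Dnajc3, which holds the ER stress element and encodes a co-chaperone of BiP, read 2081 and 2368 on the Dox arrays, against 842 on the fasted array (1.50 ± 0.30 (SE, adjusted p = 0.0231)), with 913 on the refed array. Ube2j1, a ubiquitin-conjugating enzyme of the ER membrane, was not detected on the fasted array and was at least 2.09-fold higher, at 174 and 165, against 118, on deposited intensities a log2 difference of 0.52. Kdelr3, a receptor that returns escaped proteins to the ER, read 1068 and 2452 on the Dox arrays, against 557 on the fasted array. Its Dox arrays differed more than 2-fold from each other, and its adjusted p was 0.054. Asns, asparagine synthetase, was at least 4.7-fold higher, at 239 and 296, against 127, the last below the detection level, or 1.07 in log2 of deposited intensities. Nupr1, a stress-induced chromatin protein, read 1210.0 and 1219 on the Dox arrays, against 543 on the fasted array (1.32 ± 0.30 (SE, adjusted p = 0.0281)), and the LIXs and refed arrays read 514, 828 and 381, with only the 48 h LIXs array above the fasted one.

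**Figure D4:**
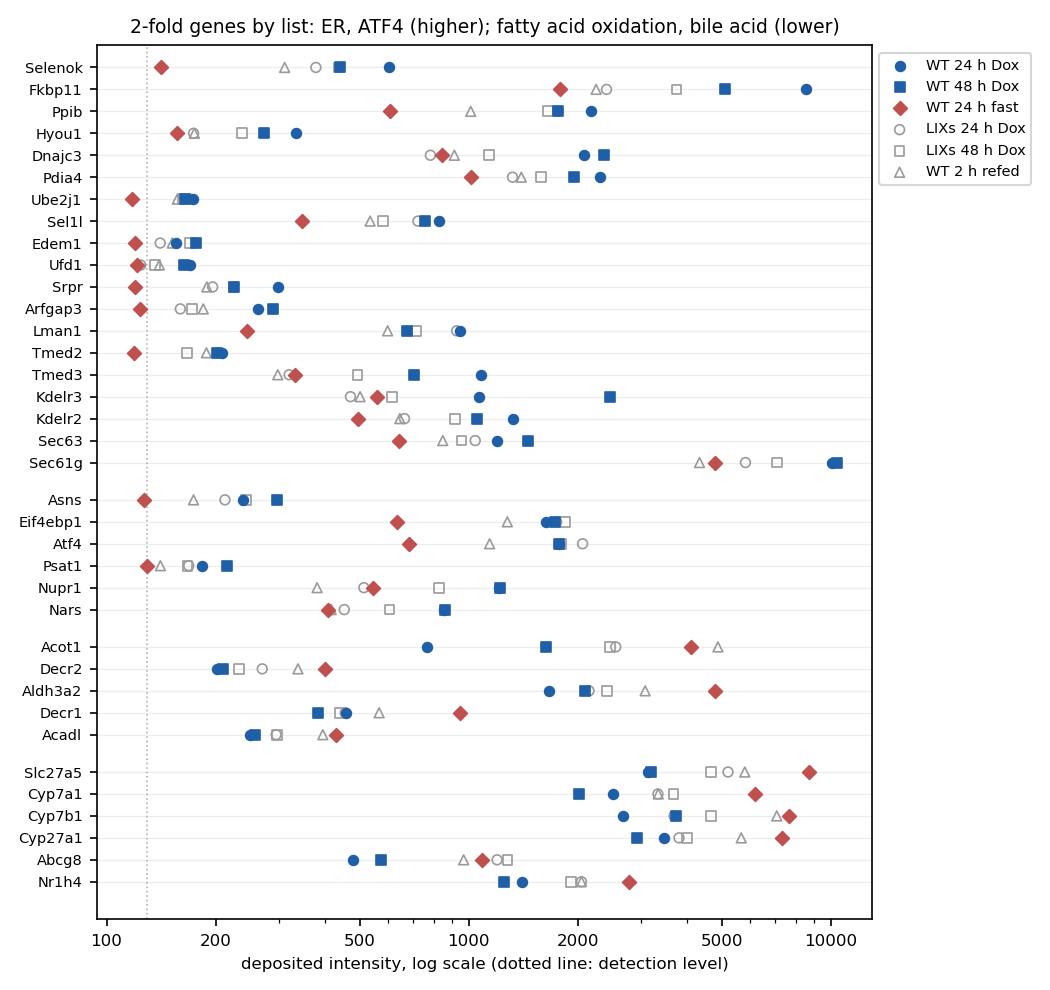
Deposited intensity (log axis) of genes at least 2-fold different. From above stand genes higher in the 3 ER lists, genes higher in the ATF4 list, and genes lower in the fatty acid oxidation and bile acid lists. Tmed10 and Gars, the 2-fold lower genes of the ER and ATF4 lists, are not drawn. Filled blue symbols are the arrays labelled WT on Dox, red diamonds the 24 h fasted array and open grey symbols the other 3 arrays. For Kdelr3 the open symbols lie near the fasted array, and for Slc27a5 between the groups.

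Selenok, a selenoprotein of the ER membrane, had the largest difference in the chaperone list, with 602 and 440.0 on the Dox arrays, against 141 on the fasted array (3.11 ± 0.35 (SE, adjusted p = 0.018)). Fkbp11, a prolyl isomerase of secretory cells, read 8565 and 5106 on the Dox arrays, against 1785 on the fasted array, Ppib, another prolyl isomerase, 2173 and 1759.7, against 608, Hyou1, the chaperone GRP170, 334 and 272, against 157, and Pdia4, a disulphide isomerase, 2299.8 and 1958, against 1012. Hspa5, which encodes BiP, read 239.8 and 203 on the Dox arrays, against 180.1 on the fasted array, above the fasted array on both but not past the test (adjusted p = 0.247). Calr, the chaperone calreticulin, read 1462 and 1492 on the Dox arrays, against 2775 on the fasted array, in the opposite direction (adjusted p = 0.0577). In degradation, Sel1l, the scaffold of the Hrd1 ligase, read 826 and 755 on the Dox arrays, against 347 on the fasted array, but its second probe differed by -0.08, and Erlec1 had -0.19 on its brightest and 1.46 on its second probe. Edem1, which marks misfolded glycoproteins, and Ufd1, which extracts them, were undetected on the fasted array and at least 1.98-fold and 2.02-fold higher after background correction. On deposited intensities their log2 differences were 0.46 and 0.45.

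In export, the cargo receptor Lman1 read 944 and 674 on the Dox arrays, against 244 on the fasted array (4.66-fold higher). Tmed3, of the p24 cargo carriers, read 1082 and 708, against 331, with 0.73 on its second probe, and Kdelr2, a second retrieval receptor, 1324 and 1056, against 495. Sec61g, a subunit of the pore itself, read 10057 and 10379.6 on the Dox arrays, against 4803 on the fasted array, while Sec61a1, the channel subunit, read 1090.4 and 973, against 1156 and did not pass (adjusted p = 0.662). Srpr, the receptor of the signal recognition particle, Arfgap3, of Golgi coats, and Tmed2 were undetected on the fasted array and at least 4.51-fold, 4.96-fold and 3.07-fold higher after background correction. On deposited intensities their log2 differences were 1.12, 1.15 and 0.79. Tmed10, a partner of Tmed2, was the 1 gene 2-fold lower, at 606 and 425, against 1165, but differed by 0.08 on its second probe. For 6 of the 9 genes 2-fold higher in this list the LIXs and refed arrays all lay above the fasted array, and for 4 of the 9 at least 2-fold above it. Among the others, Tmed3 read 319 and 493 on the LIXs arrays and 297 on the refed array, and Sec61g 5811, 7091 and 4340.

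Of the ATF4 list, Atf4 itself read 1775 and 1779 on the Dox arrays, against 683 on the fasted array (1.51 ± 0.30 (SE, adjusted p = 0.0221)), with 0.32 on its second probe, and Eif4ebp1, a repressor of translation, 1632 and 1736, against 635. Nars, an aminoacyl-tRNA synthetase, read 853 and 858, against 408, and Psat1, of serine synthesis, 183 and 215, against 129, whereas the glycyl-tRNA synthetase Gars was lower at 1762 and 2199, against 4639. Ddit3, which encodes CHOP, read 373 and 938, against 1162 and did not pass (adjusted p = 0.193), and its second probe differed by 0.25. Gcat, an enzyme of threonine breakdown outside the list, read 2028 and 1316 on the Dox arrays, against 405 on the fasted array.

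Of 18 bile acid genes 6 (33.3%, where 11.4% of all genes were) were at least 2-fold lower on the Dox arrays by the brightest probe, 0 were 2-fold higher and 15 were below 0, with a median of -0.67. Cyp7a1, the rate-limiting enzyme of bile acid synthesis, read 2509 and 2019 on the Dox arrays, against 6168 on the fasted array, 2.82-fold lower (-1.49 ± 0.32 (SE, adjusted p = 0.0248)), with 3338 on the refed array. In the alternative pathway Cyp7b1 read 2659.5 and 3728 on the Dox arrays, against 7681 on the fasted array. Cyp27a1, of the same pathway, read 3473 and 2917 on the Dox arrays, against 7341 on the fasted array. Nr1h4, the bile acid receptor FXR, read 1401 and 1255, against 2765, and Abcg8, which exports sterols into bile, 479 and 573, against 1088. Abcg8 was the exception on the other arrays, with 1198 and 1280.2 on those labelled LIXs and 969 on the refed array, which is near the fasted one. Slc27a5, which activates bile acids, read 3118 and 3183 on the Dox arrays, against 8728 on the fasted array by its brightest probe and 2681 and 2456, against 1502 by its second, so its direction depends on the probe. Over the 4 genes with a second probe the median was 0.13. Cyp8b1, the 12-alpha-hydroxylase, read 14235 and 7494, against 14658 (adjusted p = 0.387).

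Of 33 xenobiotic genes 4 (12.1%) were at least 2-fold lower and 2 (6.06%) higher, with a median of -0.24, shares near or below the 11.4% and 9.57% of all genes. Cyp2b10, a target of the receptor CAR, read 166 and 188 on the Dox arrays, against 384 on the fasted array (-1.80 ± 0.32 (SE, adjusted p = 0.0205)), Sult1d1 368 and 471, against 874 and Gsta2 124 and 135, against 201. Cyp2a4 read 308 and 264 on the Dox arrays, against 154 on the fasted array, and Cyp2c29 was at least 1.79-fold higher (0.58 in log2 of deposited intensities). Both belong to families of near-identical genes whose signal the probes may share. Of 10 male-biased liver genes 9 were below 0 and 4 (40%) at least 2-fold lower, with a median of -0.83. Cyp4a12a read 3127 and 2821 on the Dox arrays, against 8661 on the fasted array, its close relative Cyp4a12b 155 and 155, against 461, and Hsd3b5 1096 and 1096, against 2145. The 10 genes summed to 31170 and 33711 on the Dox arrays, against 55846 on the fasted array. Of 8 female-biased genes 2 were at least 2-fold higher, Cyp2a4 and A1bg (939 and 555, against 319), and the median was -0.52. The sex of the pools is not given, and its part in these values was not tested.

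In the insulin, IGF and growth hormone list 3 of 18 genes (16.7%) were at least 2-fold lower and 1 (5.56%), Sik1, higher. Of all genes 11.4% were lower and 9.57% higher. Igfbp2, a binding protein for IGFs, read 462 and 508 on the Dox arrays, against 2141 on the fasted array, 5.23-fold lower (-2.39 ± 0.30 (SE, adjusted p = 0.018)), with -0.70 on its second probe. Igf1 read 6711 and 6711 on the Dox arrays, against 14361 on the fasted array (-1.11 ± 0.30 (SE, adjusted p = 0.0407)), with -0.63 on its second probe, and Igfbp4 read 5658 and 5679, against 14092, with -0.55. These 3 genes were thus lower on the Dox arrays by both probes, although not 2-fold by the second. Irs2, the insulin receptor substrate induced by fasting, read 278 and 343, against 488 and did not pass (adjusted p = 0.0922).

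Genes of glucose output and handling had no common direction, with a median of -0.17 over 22 genes. Of these 3 (13.6%) were at least 2-fold higher and 1 (4.55%) lower, against 9.57% and 11.4% of all genes. Pck1, the key enzyme of gluconeogenesis, read 303 and 288 on the Dox arrays, against 293 on the fasted array, so the fasted array lay between the Dox arrays. G6pc, which releases glucose, read 1307 and 1782, against 1990.2 (adjusted p = 0.38). Slc2a2, the glucose transporter GLUT2, had the largest difference of all genes detected on the 3 arrays, with 856 and 311 on the Dox arrays, against 138 on the fasted array (3.15 ± 0.67 (SE, adjusted p = 0.0249)), but its second probe read 287 and 175, against 445, in the opposite direction. Slc37a4, the glucose-6-phosphate carrier, read 294 and 208, against 137, Pgk1 1604 and 1625, against 683, and Gckr, the inhibitor of glucokinase, 436 and 322, against 810.2. In the glycogen list Pygb, the brain form of glycogen phosphorylase, read 527 and 541 on the Dox arrays, against 191 on the fasted array (2.16 ± 0.30 (SE, adjusted p = 0.018)) and was the 1 of 11 genes 2-fold higher. On the other arrays Pygb lay at least 2-fold below both Dox arrays after background correction, with deposited intensities of 252 and 270.5 for LIXs and 231 for refed. Pygl, the liver form, read 2420.4 and 2165, against 1434 (adjusted p = 0.121), with 0.35 on its second probe.

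In fatty acid and triglyceride synthesis 2 of 25 genes (8%) were at least 2-fold lower and 0 higher, where 11.4% of all genes were lower. These were Aacs, which feeds ketone bodies into lipid synthesis, at 703 and 977, against 2333, and Mid1ip1, an activator of acetyl-CoA carboxylase, at 199 and 227, against 368. Scd1, the stearoyl-CoA desaturase, read 5201 and 3426 on the Dox arrays, against 1975 on the fasted array, higher on both but not past the test (adjusted p = 0.0608). Elovl6 read 314 and 303, against 216, Acly 2155 and 1879, against 2238, Srebf1 137 and 134, against 162 and Thrsp 2934 and 1351, against 1540.0, with adjusted p of 0.0893, 0.704, 0.124 and 0.567. Fasn, Acaca, Pnpla3 and Me1 were below the detection level on the 3 arrays. Of 17 sterol genes 2 (11.8%) were at least 2-fold higher, Dhcr7 (366 and 357, against 188) and Ebp (4537 and 3334, against 1597), and 1 (5.88%) was lower, Mvd (142 and 165, against 435), all of the same synthesis pathway. The list median was -0.45, and 9.57% of all genes were higher and 11.4% lower. Sqle read 427 and 824, against 520.3 and Insig1 284 and 255, against 434, and neither passed (adjusted p = 0.755 and 0.0631). By the brightest probe of Sqle the Dox arrays lay on either side of the fasted array, and its second probe differed by -0.86. Insig1 turned direction on the second probe, at 0.25.

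Of 29 genes of the urea cycle and amino acid breakdown 4 (13.8%) were at least 2-fold lower and 2 (6.9%) higher, near the 11.4% and 9.57% of all genes. Hpd, of tyrosine breakdown, read 2713 and 2232 on the Dox arrays, against 6762 on the fasted array, Slc7a2, a cationic amino acid carrier, 177 and 204, against 453, and Bcat2, which transaminates branched-chain amino acids, 162 and 174, against 328. Etnppl was at least 2.06-fold higher (0.63 in log2 of deposited intensities) and Kmo, of the kynurenine path, read 246 and 248, against 166. The list had a median of -0.32 on the brightest probe and 0.04 over 13 second probes.

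Nuclear-encoded subunits of oxidative phosphorylation had a median of 0.41, with 25 of 41 above 0, 7 (17.1%) at least 2-fold higher and 1 (2.44%) lower, where 9.57% and 11.4% of all genes were. Ndufa1, of complex I, read 7753 and 9374 on the Dox arrays, against 3269 on the fasted array (1.41 ± 0.31 (SE, adjusted p = 0.0268)), Ndufb10 700.1 and 499.5, against 275 and Sdhd, of complex II, 238 and 206, against 131. Atp5c1, of the ATP synthase, was the lower gene, at 5328 and 5093, against 10574. Over 10 genes with a second probe its median was 0.54, with 7 above 0, where the brightest probes of those genes had a median of 0.14. The 2 probes had the same direction for 5 of the 10, and 0 were 2-fold on both. Mitochondrial ribosome and translation genes had 2 of 34 (5.88%) higher and 2 (5.88%) lower, below the 9.57% and 11.4% of all genes. Of these 4 genes 2 reversed on the second probe, Mrpl9 (-1.41 and 0.99) and Mrps10 (1.37 and -0.50). Mrpl49 was lower on both probes, by -1.17 and -1.06. Of 27 proteasome subunits 3 (11.1%, near the 9.57% of all genes) were higher, Psme4 at 1755 and 2079, against 885, and Psmb5 and Psmd11 by at least 2.78-fold and 2.59-fold. Psmb5 and Psmd11 were undetected on the fasted array, and on deposited intensities their log2 differences were 0.69 and 0.65. Among the 23 subunits detected on all 3 arrays 1 was 2-fold higher. Of 20 autophagy and lysosome genes 1 (5%), Map1lc3b, was higher, at 286 and 236, against 139, and 2 (10%), Ulk1 and Becn1 (157 and 156, against 232), were lower. Of 20 ribosome biogenesis genes 1 (5%), Rrp1b, was lower and 0 were higher. These shares were also below those of all genes.

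Among 15 clock genes Per1 read 392 and 563 on the Dox arrays, against 207 on the fasted array, but its second probe differed by -0.18. Per2 read 336 and 489 on the Dox arrays, against 879.6 on the fasted array, with -0.90 on its second probe (adjusted p = 0.0453 on the brightest). Nampt was at least 2.57-fold higher (0.56 in log2 of deposited intensities), and Dbp read 3338 and 2075, against 1496 (adjusted p = 0.133). Of 14 glucocorticoid targets Fkbp5, a co-chaperone of the glucocorticoid receptor, read 277 and 350.0 on the Dox arrays, against 644 on the fasted array (-1.34 ± 0.34 (SE, adjusted p = 0.0352)) and Sgk1, a kinase, 673 and 682, against 1449, both lower, and Pim3, also a kinase, read 2262 and 2983, against 806, higher, so the list had no common direction (median -0.25). No label states the time of day at which livers were taken.

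In the stress and inflammation lists the share of 2-fold genes lay between 0 and 15.8% in each direction, against 9.57% higher and 11.4% lower over all genes. Of 16 immediate early genes Rhob was at least 4.41-fold and Ccn1 at least 1.16-fold higher, and Junb and Zfp36 did not pass (adjusted p = 0.352 and 0.196). On deposited intensities the log2 differences of Rhob and Ccn1 were 1.09 and 0.41. Of 19 heat shock genes 3 (15.8%) were higher, Hspb8, Hspd1 and Hspa4, but Hspb8 (1.29) and Hspd1 (1.14) had second probes at -0.64 and -0.34. Of 25 acute phase genes 16 lay above 0, with a median of 0.29, and 3 (12%) were lower. These were Il6ra, Il1r1 (116 and 121, against 231) by at least 3.8-fold and Fgb (101 and 105, against 137) by at least 1.24-fold. Il1r1 and Fgb were undetected on the Dox arrays, and 1 of the 23 genes detected on all 3 arrays was 2-fold lower. Saa3, at 964 and 1575, against 638, and Hamp, the iron hormone hepcidin, at 19289 and 13538, against 7649, did not pass (adjusted p = 0.0879 and 0.0593). Of 21 interferon genes Isg15 read 459 and 496, against 234 and Oasl2 was at least 1.56-fold higher (0.52 in log2 of deposited intensities). Among 32 hepatocyte secretory products Apoa5, a regulator of plasma triglyceride, was lower at 603 and 603, against 1666, and Apoa4, at 3071 and 5955, against 12095, differed by 0.03 on its second probe. Of 7 proliferation genes 0 were 2-fold changed, against 9.57% higher and 11.4% lower overall.

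Cell type markers differed in part between the arrays, and in whole liver fewer cells of a type and less RNA per cell cannot be told apart. The 9 hepatocyte markers summed to 92327 and 90566 on the Dox arrays, against 73963 on the fasted array, a difference carried by the bright genes Ttr and Apoa1. Their median difference was -0.20, with 5 of 9 below 0 and 0 2-fold changed. Of 11 sinusoidal endothelial markers 3 (27.3%) were at least 2-fold lower, where 11.4% of all genes were. The 11 markers summed to 7494 and 7278 on the Dox arrays, against 13677. Most of that difference in the sum lay in Clec4g, and Lyve1 (1.09), Cdh5 (0.82) and Eng (0.52) were above 0, Lyve1 and Cdh5 being undetected on the fasted array. Clec4g, a lectin of those cells, read 3928 and 3941 on the Dox arrays, against 8949 on the fasted array, and Stab1, a scavenger receptor, 216 and 220.0, against 354 with -0.53 on its second probe, while Gpr182 had -1.18 and 0.45 on its probes. Kupffer cell markers had a sum of 2707 and 2728 on the Dox arrays, against 3236, with the difference nearly all in Clec4f, at 377 and 357, against 855. Of the 10 Kupffer markers 5 lay above 0, with a median of 0.22, and Adgre1, undetected on the fasted array, read 151 and 158, against 111 (at least 1.68-fold higher). In the cholangiocyte list Krt8, a keratin that hepatocytes also express, read 2474 and 2177 on the Dox arrays, against 572 on the fasted array, and its partner Krt18 1538 and 1519, against 621. Sox9 read 275 and 391, against 735, whereas Krt7 read 112 and 120.4, against 144, below or near the detection level on the Dox arrays. The 4 erythroid markers summed to 14305 and 18438 on the Dox arrays, against 24760, of which Hba-a1 read 13748 and 17923 on the Dox arrays, against 24145 on the fasted array (adjusted p = 0.182). The 18 pancreatic acinar markers summed to 16117 and 15976 on the Dox arrays, against 16484, and stellate, neutrophil, lymphocyte and adipocyte sums were 5323 and 5529 against 4346, 713 and 849 against 797, 358 and 379 against 381, and 1721 and 1952 against 2677. Of the adipocyte markers 7 of 8 on the array were not detected, and of the lymphocyte markers 6 of 9. The part of these cell types in the gene results was not tested.

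Beside Slc2a2, Selenok, Zcchc17, Gcat, Cyp4a12b, Mvd and Igfbp2 above, the 12 largest differences in each direction among genes detected on all 3 arrays were as follows. Higher on the Dox arrays were Med18, a Mediator subunit, at 528 and 367, against 146, Dedd2 at 660.3 and 786, against 189, Arpc2, of the actin-nucleating Arp2/3 complex, at 494 and 475, against 154, and Guca1a at 772 and 641, against 206. Cfdp1, C1galt1c1, a chaperone of O-glycan synthesis, and Elmo3 followed with 2.47, 2.31 and 2.25, and Parn, a poly(A) ribonuclease with a second probe, with 2.49 and 0.59. Lower were Stxbp5l at 160.0 and 167, against 519, Sdr9c7 at 159 and 178, against 512, Wdr13 at 199.8 and 201, against 692, and Ppp1r1b at 182 and 181, against 565. Akr1c19 read 506 and 648 on the Dox arrays, against 2567 on the fasted array, Pnkd 329 and 353, against 1336, and Neu2, Ccdc126 and Nuak2 differed by -2.33, -2.21 and -2.17. Adjusted p for these genes lay between 0.018 and 0.0197. Of genes undetected on 1 side, Ptpre, a receptor phosphatase, was at least 13.6-fold higher, at 593 and 587, against 117, followed by Txn1, thioredoxin, at least 7.09-fold, Pafah1b1 5.96-fold and Yap1 5.94-fold. Fitm1, which partitions fat into droplets, was at least 4.81-fold lower, Slc25a36 4.73-fold, Dkkl1 4.32-fold and Cacna1a 4.04-fold. These bounds rest on background-corrected levels, and for Ptpre, Txn1 and Fitm1 the difference on deposited intensities was 2.33, 1.83 and -1.21 on the log2 scale.

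**Figure D5:**
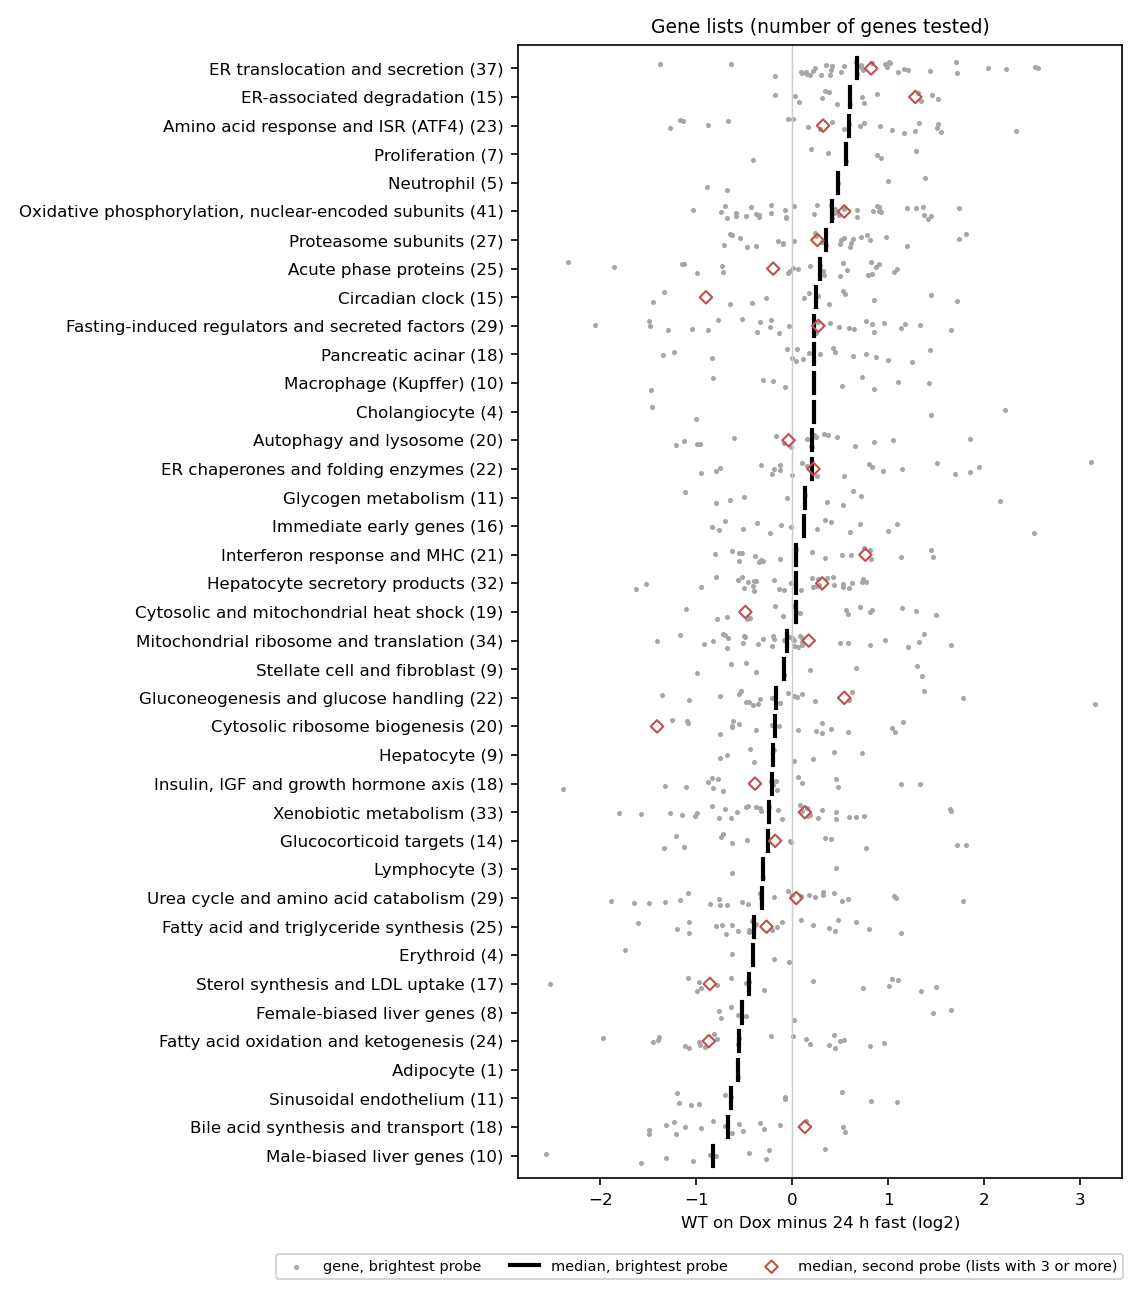
Mean log2 difference, Dox arrays minus fasted array, of the genes of 39 lists, with the number tested in brackets; grey points are genes by their brightest probe, black bars the list medians and red diamonds the medians of second probes where a list has 3 or more. ER translocation and secretion stands at the top with a median of 0.67 and male-biased genes at the bottom with -0.83, and for 9 of the 24 lists with a red diamond the second-probe median lies on the other side of 0 from the black bar.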

How the data were processed

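Liver RNA was measured on Illumina bead arrays, 1 per pool. The authors deposited linear intensity values for 45281 probes, and GenomeStudio is named without a version per the submitters' processing notes. The normalization method was not stated. The lowest and highest deposited intensities were 81.1 and 50652, each array's median was 113, and sorted values of the arrays lay within 0.0199 on the log2 scale, so they were taken as already normalized but without background subtraction. Another table with 12 per-sample columns, whose names match no sample, was not used. Background (mode 108, SD 7.45 from the mirrored lower values) was corrected with normexp, an offset of 16 was added, and arrays were quantile-normalized with limma 3.58.1 in R 4.3.3. The design had planned background correction from control probes, which were not available in the value table. The detection level of 129 leaves few values of the mirrored background above it.

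Of the probes 34885 had 1 gene name, 18 several and 10378 none, and 34807 matched RefSeq. Each gene was read by its brightest probe over all 6 arrays. Calls needed 2-fold in 1 direction against both Dox arrays. The limma fit set the 2 Dox arrays against 1 fasted array with Benjamini-Hochberg adjustment, a prior of 5.83 degrees of freedom and a prior SD of 0.262, so an SE rests mostly on all genes. The fit was run on simulated data whose errors came from its own prior, with the same spread for the fasted array. That run therefore cannot tell whether the fasted array varies like the Dox arrays. Comparisons share the fasted array, and nothing says that pools were separate cultures or litters. The number of arrays limits the precision. Genes named are the 12 largest in each direction detected on all 3 arrays, up to 3 per direction of each list, core fasting genes, the 4 largest bounds, genes with upstream sequence, and genes 2-fold on both probes. The members and lists were chosen with earlier results of these data known, and the both-probe genes after their values were seen.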

Additional observations from a re-analysis of the deposited data

How the results depend on the processing

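The counts of 2-fold genes depended on the processing. Against 892 higher and 1063 lower genes, there were 169 and 179 without background correction, 383 and 411 with an offset of 50, 428 and 457 among genes detected on all 3 arrays, and 137 and 105 when the second probe replaced the brightest, an alternative chosen after seeing the data and limited to 1566 genes. Leaving out the 48 h or the 24 h Dox array, which leaves 1 array a side and no test, gave 1291 to 1340 higher and 1382 to 1513 lower genes. In limma, against 987 higher and 1196 lower genes, 650 were higher with an offset of 50, 472 and 524 passed among genes detected on all 3 arrays, 0 and 0 passed with undetected genes included (4859 at an unadjusted p under 0.05), and 1778 and 2126 passed in a fit of all 6 arrays with Dox time as a block. Of the 294 named genes 147 were above 0, and 40 of the 82 with a second probe were above 0 on it. Of 39 list medians 20 were above 0, and 16 to 21 under the alternatives.

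On the second probe 24 of the 82 named genes that have one had a mean difference of the opposite sign, 13 of them not 2-fold by the brightest probe. Of 24 list medians 9 also changed sign. Among lists with a median at least 0.3 from 0 these were the bile acid list (0.13) and the urea cycle list (0.04), and the 11 genes 2-fold by the brightest probe were Slc2a2 (-1.48), Slc27a5 (0.81), Sel1l (-0.08), Tmed10 (0.08), Hspb8 (-0.64), Hspd1 (-0.34), Per1 (-0.18), Apoa4 (0.03), Mrpl9 (0.99), Mrps10 (-0.50) and Gpr182 (0.45). Among genes detected on all 3 arrays the neutrophil median was -0.68 and the female-biased median 0.02, and without a filter the adipocyte median was 0.06. The cause was not tested. No paired analysis was possible because the labels give 1 pool per group and the groups share only a single replicate number. Genes near the detection level carry the least certain differences, and a p-value from 2 arrays against 1 does not measure variation between animals.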
